A study of Pimephales promelas with 139 samples.

Results

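Whole larvae of the fathead minnow (Pimephales promelas), a small freshwater fish used in toxicity testing, were compared after exposure to 10 ng/L of ethinyl estradiol (EE2) or to none. The comparison uses 57 of the 139 libraries of the series: 28 libraries from larvae at 10 ng/L and 29 from control larvae at 0 ng/L, chosen by the concentration that the labels give. Exposure was static, began 48 h after hatching and lasted 48 h, so that larvae were 96 h old when collected. The libraries come from 3 experiments, with 10, 9 and 10 control larvae and 10, 9 and 9 larvae at 10 ng/L in experiments 1, 2 and 3. The experiment was assigned from the number in the library title. Numbers 2 to 23 are experiment 1, 27 to 48 experiment 2 and 52 to 73 experiment 3. Each experiment holds both groups. The labels give no strain, sex, parents or vessel for a larva. The p-values below therefore measure only the spread between these libraries, some of which may be technical. They treat larvae as independent, and would be too small if larvae of 1 concentration shared vessels that shifted their levels.

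Ethinyl estradiol is the synthetic estrogen of oral contraceptives and reaches rivers with waste water. Estrogens act mainly through estrogen receptors, which are transcription factors that bind the hormone and then raise or lower the transcription of target genes. In the liver of egg-laying fish, the best known targets are the genes for vitellogenin, the yolk precursor, and for egg envelope proteins. The deposited table holds transcript identifiers without gene names, and none of them matched the gene table at hand (0 of 64593 genes). Transcripts are therefore named as the file gives them, with no role and no sequence. The series set out to develop markers of this exposure from expression data, and 10 ng/L is its highest concentration.

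At 10 ng/L, 96 of 32589 transcripts tested were called as changed against control, which is 0.295%. The number of rises was 61 (0.187% of those tested) and the number of falls 35 (0.107%). A change was called where the Benjamini-Hochberg adjusted p of edgeR's quasi-likelihood test on the read counts, with experiment as a term, was under 0.05. The unadjusted p was under 0.05 for 2440 transcripts, or 7.49%. Most changes were small: 39 of the rises were under 1.5-fold, 14 lay from 1.5- to 2-fold and 8 were 2-fold or more. Of the falls, 32 were under 1.5-fold, 2 lay from 1.5- to 2-fold and 1 was 2-fold or more. Together, the 9 changes of at least 2-fold were 0.0276% of the transcripts tested. The median log2 change was 0.41 over the rises, or 33.2%, and -0.28 over the falls, or -17.7%, and the median absolute log2 change over all transcripts tested was 0.07. Levels below are CPM, read counts scaled to the effective library size. A level compares a transcript with itself in another larva, not with another transcript, since lengths are not given.

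**Figure D1:**
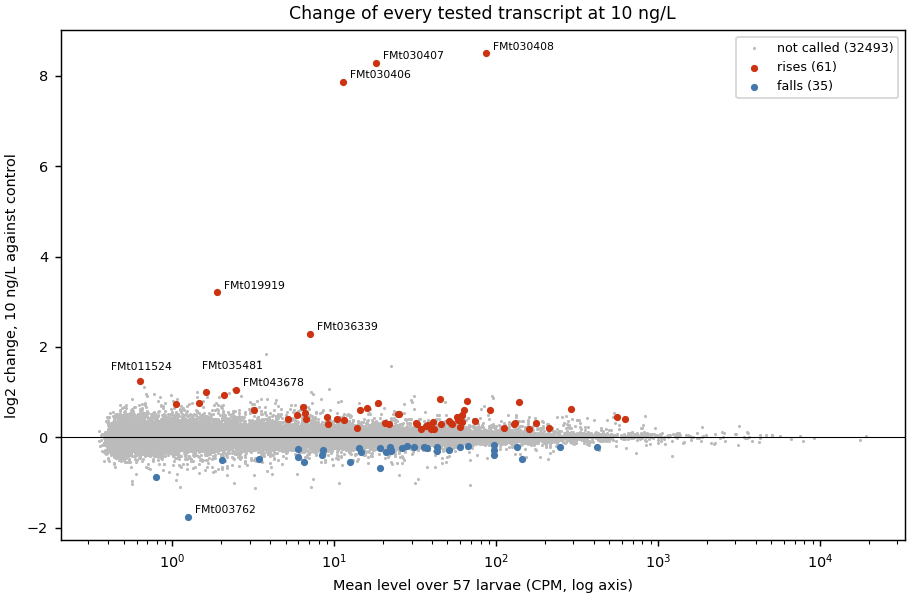
Log2 change at 10 ng/L against control (vertical axis) by mean level over the 57 larvae in CPM (log axis) for each of the 32589 transcripts tested, with rises in red and falls in blue. The 3 topmost points, FMt030406, FMt030407 and FMt030408, lie near a log2 change of 8, and most other called transcripts lie within 1 log2 unit of 0.

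Total counts ran from 8756290 to 30553300 per library. The mean total was 20777300 at 10 ng/L and 23327600 in controls (permutation test within experiments, two-sided, p = 0.0398, adjusted over 3 library measures 0.0597), so the difference did not pass after adjustment. The 4 libraries under 0.5 times the median total were all from larvae at 10 ng/L, 3 in experiment 1 and 1 in experiment 2. Without them 53 transcripts were called, 52 of them among the 96. Leaving out the 5 libraries under 12000000 counts, which also removes 1 control, left 38 calls. The part of depth in the other calls was not tested. As whole larvae were sequenced, fewer cells of a type and less RNA per cell cannot be told apart.

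A group of 4 transcripts rose in every exposed larva. For these, each exposed larva (28 in all) exceeded each of the 29 controls, which held for 0.0123% of the transcripts tested, that is for these 4. FMt030408 had a lowest, median and highest level of 0.170, 0.430 and 1.02 CPM in controls and of 76.3, 172 and 306 CPM at 10 ng/L. Its mean went from 0.477 ± 0.216 CPM (SD, n = 29) to 176 ± 62.6 CPM (SD, n = 28), a log2 change of 8.50 ± 0.17 (SE; edgeR adjusted p = 1.07e-43). The lowest exposed larva was thus far above the highest control. The controls were not empty: each held 3 to 27 reads of FMt030408, 327 in all.

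FMt030407 ranged from 0 through a median of 0.0984 to 0.344 CPM in controls and from 15.5 through 37.1 to 59.6 CPM at 10 ng/L. The log2 change was 8.29 ± 0.21 (SE; edgeR adjusted p = 6.24e-39), and 7 of 29 controls held no read. The lowest exposed larva again lay far above the highest control. FMt030406 ranged from 0 through 0.0786 to 0.395 CPM in controls, 9 of which held no read, and from 5.78 through 22.8 to 39.5 CPM at 10 ng/L. Its log2 change was 7.86 ± 0.24 (SE; edgeR adjusted p = 1.58e-34). The 29 controls together held 75 reads of FMt030407 and 63 of FMt030406, so the sizes of these 2 changes rest on few control reads.

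FMt019919 was the fourth of this group and changed less. Its levels were 0.0841, 0.371 and 0.862 CPM (lowest, median, highest) in controls and 2.01, 3.38 and 5.85 CPM at 10 ng/L, a log2 change of 3.21 ± 0.16 (SE; edgeR adjusted p = 3.17e-24). The rise was seen in each experiment, with means of 0.258, 0.400 and 0.441 CPM in controls and of 3.15, 4.35 and 2.87 CPM at 10 ng/L. The other 3 were also alike in the experiments: FMt030408 went from 0.518, 0.339 and 0.560 CPM to 201, 173 and 151 CPM. FMt030407 went from 0.128, 0.112 and 0.0805 CPM to 43.1, 35.6 and 30.2 CPM. FMt030406 went from 0.120, 0.0691 and 0.0763 CPM to 27.7, 21.1 and 19.4 CPM. For these 3 the exposed mean was highest in experiment 1 and lowest in experiment 3.

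**Figure D2:**
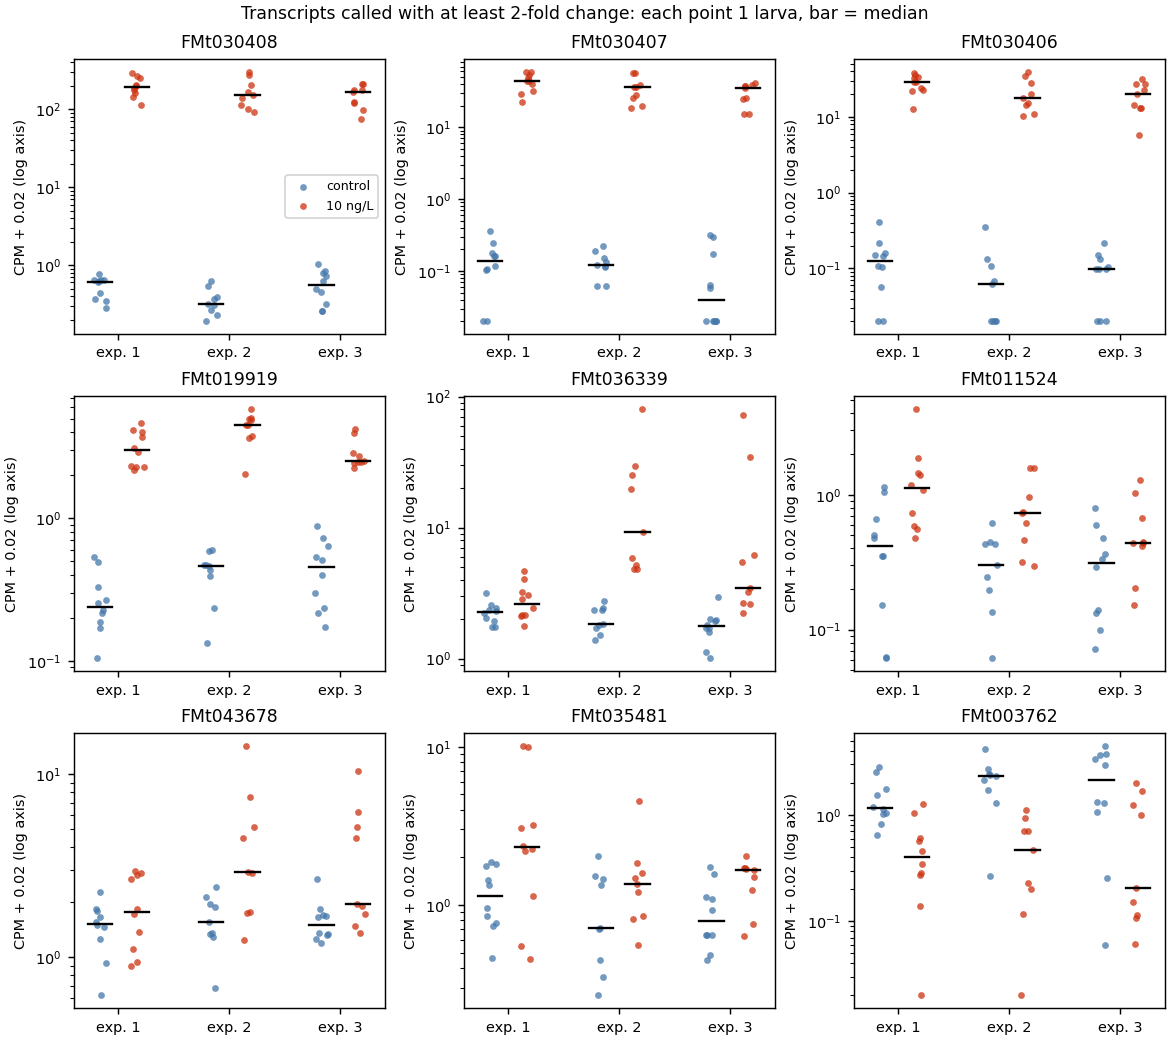
Level of the 9 called transcripts of at least 2-fold change in each larva, as CPM plus 0.02 on a log axis, by experiment, with controls in blue, larvae at 10 ng/L in red and a bar at the median. FMt030406, FMt030407, FMt030408 and FMt019919 show no overlap, whereas FMt036339 is raised in experiments 2 and 3. It overlaps with controls in most exposed larvae of experiment 1 and in some of experiment 3.

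The consecutive identifiers FMt030406, FMt030407 and FMt030408 also varied together among the exposed larvae. With levels centred within experiment, FMt030408 correlated with FMt030407 (r = 0.96, rho = 0.97) and with FMt030406 (r = 0.92, rho = 0.91) over the 28 larvae at 10 ng/L. The permutation p within experiments was 1e-05 for each, the smallest that the resamples can give, and 4e-05 after adjustment over 8 pairs. Without the 2 larvae farthest from the median, r was 0.95 and 0.90. Among controls, where reads are few, FMt030406 with FMt030407 gave r = -0.02 and FMt030407 with FMt030408 gave r = -0.29, neither past the threshold. Whether reads were shared between similar transcripts was not tested, and the labels do not say how such reads were assigned.

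FMt030408 did not correlate past the threshold with FMt019919 (r = 0.17, rho = 0.06; permutation adjusted p = 0.573 and 0.890), nor with the other large rises FMt036339, FMt011524, FMt043678 and FMt035481, for which r lay between -0.20 and 0.18. With FMt003762, the largest fall, r was 0.61 and rho 0.60 over the 28 exposed larvae (permutation p = 0.00106 and 0.00153, adjusted 0.00283 and 0.00408). Within experiments 1, 2 and 3 this r was 0.55, 0.72 and 0.58, and it was 0.54 without the 2 larvae farthest from the median. Exposed larvae with more FMt030408 thus tended to have more, not less, of a transcript whose mean fell. The level of FMt003762 was low in these larvae, with a mean of 0.552 CPM. FMt030408 was paired only with chosen called transcripts, and the share of all transcripts tested that reach such an r was not computed. What this r reflects was not tested.

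FMt036339 was far above the controls in some exposed larvae and within their range in others. Its lowest, median and highest levels were 0.983, 1.91 and 3.14 CPM in controls and 1.77, 4.36 and 81.0 CPM at 10 ng/L. The log2 change was 2.29 ± 0.37 (SE; edgeR adjusted p = 2.48e-04), and 18 of 28 exposed larvae lay above the highest control. Those 18 were 3 of 10 larvae in experiment 1, all 9 in experiment 2 and 6 of 9 in experiment 3, as measured against the controls of their own experiment. The log2 change was 0.34 ± 0.50 (SE) in experiment 1, 3.37 ± 0.54 in experiment 2 and 3.06 ± 0.51 in experiment 3. The test of the difference between experiments gave p = 1.06e-04 before and 0.742 after adjustment over all transcripts (edgeR). The call was lost when experiment 2 was left out. Such losses were common among the called transcripts. Without experiment 1, 82 of the 95 with a value were lost, without experiment 2 80 of 96, and without experiment 3 52 of 96. For this transcript and those below, not every setting that lost a call is named.

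FMt011524 had few reads, 251 over the 29 controls. Its lowest, median and highest levels were 0.0412, 0.329 and 1.12 CPM in controls and 0.132, 0.684 and 4.33 CPM at 10 ng/L, a log2 change of 1.24 ± 0.27 (SE; edgeR adjusted p = 0.0177). The groups overlapped, with 8 exposed larvae above the highest control. The call was lost without experiment 2, and also without the libraries under 12000000 counts. FMt043678 was at 0.598, 1.53 and 2.67 CPM in controls and at 0.874, 2.29 and 14.3 CPM at 10 ng/L, a log2 change of 1.05 ± 0.21 (SE; edgeR adjusted p = 0.00679). Its change was 0.38 in experiment 1, 1.51 in experiment 2 and 1.28 in experiment 3, and 13 exposed larvae lay above every control. The call of FMt043678 was lost by limma-voom and without experiment 2 or experiment 3 (highest adjusted p = 0.233 over 16 settings).

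FMt035481 was at 0.248, 0.907 and 2.03 CPM in controls and at 0.438, 1.60 and 10.1 CPM at 10 ng/L, a log2 change of 1.00 ± 0.25 (SE; edgeR adjusted p = 0.0469). It is the called transcript nearest to the threshold, and its exposed mean of 3.51 CPM in experiment 1 rests largely on 2 larvae with 9.89 and 10.1 CPM. FMt026948 was at 0.385, 1.21 and 5.07 CPM in controls and at 0.589, 2.42 and 6.65 CPM at 10 ng/L, a log2 change of 0.94 ± 0.21 (SE; edgeR adjusted p = 0.0227). Its groups overlapped widely, with 3 exposed larvae above the highest control and 13 above the controls of their own experiment. The calls of FMt035481 and FMt026948 were lost by limma-voom and whenever 1 of the 3 experiments was left out. That of FMt035481 was also lost without the libraries under 0.5 times the median total.

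No transcript had each of its 28 exposed levels below each of the 29 control levels. FMt003762 fell most: it was at 0.0391, 1.70 and 4.47 CPM (lowest, median, highest) in controls and at 0, 0.380 and 1.97 CPM at 10 ng/L. The log2 change was -1.76 ± 0.33 (SE; edgeR adjusted p = 0.00229), with means of 1.43, 2.13 and 2.2 CPM in the controls of experiments 1, 2 and 3 and of 0.479, 0.479 and 0.705 CPM in the exposed larvae. The groups overlapped: the highest exposed larva, at 1.97 CPM, lay above the control median of 1.70 CPM, and the lowest control was near 0. The call was lost when experiment 1 or experiment 2 was left out.

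FMt041475 had the smallest p of the falls. It was at 104, 157 and 267 CPM in controls and at 65.0, 122 and 189 CPM at 10 ng/L, a log2 change of -0.48 ± 0.06 (SE; edgeR adjusted p = 3.88e-06). Of the exposed larvae, 9 lay below the lowest control and 19 of 28 below the controls of their own experiment. The means went from 124, 176 and 200 CPM to 83.5, 133 and 147 CPM in experiments 1, 2 and 3, so experiment 1 was lowest in both groups.

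FMt042784 was at 8.10, 19.4 and 48.8 CPM in controls and at 3.96, 11.1 and 39.1 CPM at 10 ng/L, a log2 change of -0.67 ± 0.15 (SE; edgeR adjusted p = 0.0227). Its means were 17.2, 30.1 and 23.2 CPM in controls and 8.43, 16.9 and 20.6 CPM at 10 ng/L, so the groups were closest in experiment 3, and the call was lost without experiment 1 or experiment 2. FMt045695 was at 3.56, 7.41 and 14.8 CPM in controls and at 2.11, 4.72 and 9.76 CPM at 10 ng/L, a log2 change of -0.54 ± 0.12 (SE; edgeR adjusted p = 0.0258). Its means were 6.18, 7.96 and 8.86 CPM in controls and 4.35, 6.60 and 4.98 CPM at 10 ng/L, so the groups were farthest apart in experiment 3. In both transcripts the ranges of the groups overlapped over most of their length. The call of FMt045695 was lost without experiment 1 or experiment 3. The calls of FMt042784 and FMt045695 were also lost without the libraries under 0.5 times the median total.

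FMt042207 was at 8.03, 13.7 and 23.8 CPM in controls and at 4.33, 10.0 and 17.1 CPM at 10 ng/L, a log2 change of -0.54 ± 0.10 (SE; edgeR adjusted p = 0.00229). Its means went from 13.7, 15.9 and 14.6 CPM to 10.4, 9.42 and 10.5 CPM, and the call was lost without experiment 2. FMt029241 was at 1.26, 2.27 and 4.21 CPM in controls and at 0.776, 1.57 and 3.18 CPM at 10 ng/L, a log2 change of -0.49 ± 0.12 (SE; edgeR adjusted p = 0.0297). For FMt029241, 9 exposed larvae lay below the lowest control, against 5 for FMt042207, but its call was lost whichever experiment was left out. The call of FMt029241 was also lost without the libraries under 0.5 times the median total.

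FMt024222 was at 1.57, 4.003 and 5.90 CPM in controls and at 1.24, 2.91 and 5.40 CPM at 10 ng/L, a log2 change of -0.48 ± 0.11 (SE; edgeR adjusted p = 0.0406). FMt027516 was at 3.30, 7.14 and 10.3 CPM in controls and at 2.78, 4.79 and 7.15 CPM at 10 ng/L, a log2 change of -0.44 ± 0.10 (SE; edgeR adjusted p = 0.0255). For both, no larva of experiment 3 lay below the controls of that experiment, against 11 and 10 larvae of the other experiments together. Both calls were lost by limma-voom, without experiment 1 or experiment 2, and without the libraries under 0.5 times the median total.

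The other 79 called transcripts, 52 rises and 27 falls, are given with their means in experiments 1, 2 and 3, controls first and larvae at 10 ng/L second, and with their log2 change ± SE in parentheses. Each had an edgeR adjusted p under 0.05, though some were called in few of the alternative settings given further below. Most are sorted by the experiment in which the estimated change was largest. This sorting is a description, since no transcript passed the test of a difference between experiments. Of the 96 called transcripts, 22 lay within 10 identifiers of another called one, in 8 groups, which is 22.9% against 3.63% over all transcripts tested. Whether such neighbours are parts or copies of 1 gene is not recorded in the file. The following rises belong to these groups.

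FMt007494 rose from 60.9, 37.9 and 43.7 CPM to 104, 85.1 and 62.1 CPM (0.81 ± 0.16). FMt007495 went from 16.8, 11.7 and 12.6 CPM to 28.4, 25.9 and 16.6 CPM (0.76 ± 0.17). Both rose most in experiment 2, and FMt007495 exceeded every control of its own experiment in 8 of 28 exposed larvae. FMt007496 rose from 37.9, 27.3 and 29.1 CPM to 70.7, 61.5 and 41.1 CPM (0.85 ± 0.15). FMt007497 went from 121, 87.4 and 95.3 CPM to 214, 186 and 129.6 CPM (0.78 ± 0.14). The 4 changes thus lay between 0.76 and 0.85 on the log2 scale, and in each experiment the 4 transcripts moved by like amounts. Among the 29 controls, adjacent members of this group of 4 correlated with r between 0.89 and 0.95, each with a permutation p of 1e-05 (the smallest possible, 2.8e-05 adjusted over 14 pairs). In other groups r was lower: -0.19 for FMt027516 with FMt027523, 0.44 for FMt047558 with FMt047559 and 0.51 for FMt002764 with FMt002765. It was 0.69 for FMt014816 with FMt014817 and 0.75 for FMt008074 with FMt008075. The r of neighbouring identifiers in general was not computed.

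FMt035470 rose from 12.8, 12.2 and 11.2 CPM to 29.5, 15 and 14.8 CPM (0.65 ± 0.15). FMt035472 went from 19.9, 19.8 and 20.2 CPM to 40.1, 24.8 and 22.9 CPM (0.52 ± 0.12). The control means of both barely differed between experiments, whereas the exposed means were highest in experiment 1. FMt035477 rose from 20.8, 20.2 and 19.8 CPM to 40.7, 24 and 24.1 CPM (0.51 ± 0.12). FMt035482 went from 11.5, 12 and 10.2 CPM to 24.2, 13.7 and 14.2 CPM (0.59 ± 0.13). In experiment 1 the log2 changes of these 4 were 1.21, 1.02, 0.97 and 1.08, and in experiments 2 and 3 they lay between 0.18 and 0.47. FMt035481, described above, lies between these identifiers. Among controls FMt035470 and FMt035472 correlated (r = 0.81, permutation p = 1e-05, adjusted 2.8e-05), whereas the other adjacent pairs of this group did not pass the threshold.

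FMt047558 rose from 0.709, 0.832 and 0.762 CPM to 1.71, 1.42 and 0.878 CPM (0.74 ± 0.18). FMt047559 went from 4.81, 4.89 and 4.75 CPM to 10.2, 7.54 and 5.98 CPM (0.68 ± 0.15). Both rose most in experiment 1 and least in experiment 3. FMt008074 rose from 56.2, 40.8 and 54.1 CPM to 72.4, 61.8 and 61.7 CPM (0.38 ± 0.08). FMt008075 went from 60.1, 40.8 and 51.6 CPM to 85, 73.7 and 56.2 CPM (0.49 ± 0.11). This pair rose most in experiment 2, with FMt008075 at a log2 change of 0.85 there and 0.12 in experiment 3. FMt002764 rose from 11.4, 7.35 and 7.77 CPM to 15.6, 10.8 and 8.92 CPM (0.40 ± 0.08). FMt002765 went from 5.24, 4.17 and 3.82 CPM to 7.43, 5.81 and 4.4 CPM (0.39 ± 0.09). For FMt002764, 16 of the 28 exposed larvae exceeded every control of their own experiment. FMt014816 rose from 65.9, 46.2 and 50.8 CPM to 82, 67.7 and 55.7 CPM (0.33 ± 0.08). FMt014817 went from 41.8, 32.5 and 31.9 CPM to 54.8, 42.9 and 37.8 CPM (0.35 ± 0.08). Of this last pair, FMt014816 had no exposed larva above the highest of the 29 controls, against 7 for FMt014817.

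A total of 20 further rises were largest in experiment 1.

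FMt041593 rose from 237, 218 and 224 CPM to 479, 295 and 289.7 CPM (0.62 ± 0.14). FMt008590 went from 5.67, 5.29 and 5.24 CPM to 8.78, 7.12 and 7.57 CPM (0.53 ± 0.08). FMt020915 had 4.84, 5.04 and 4.78 CPM in controls and 7.66, 6.28 and 6.72 CPM at 10 ng/L (0.50 ± 0.12). Of these 3, FMt008590 separated the groups best: 20 of the 28 exposed larvae lay above every control of their own experiment, against 12 for FMt041593 and 10 for FMt020915. FMt024631 rose from 7.98, 6.69 and 7.92 CPM to 12, 9.63 and 9.4 CPM (0.45 ± 0.10). FMt034645 went from 552, 386 and 455 CPM to 869.8, 515 and 539 CPM (0.44 ± 0.08). FMt008125 had 561, 477 and 545 CPM in controls and 875, 682 and 573 CPM at 10 ng/L (0.41 ± 0.10). The log2 change of FMt008125 was 0.64 in experiment 1 but 0.07 in experiment 3. FMt013527 rose from 6.58, 5.56 and 5.11 CPM to 9.25, 6.87 and 6.74 CPM (0.40 ± 0.08). FMt003190 went from 10.2, 10.2 and 9.21 CPM to 15.3, 14.1 and 10.1 CPM (0.39 ± 0.09). FMt013193 had 49.3, 42.3 and 42.3 CPM in controls and 68.6, 57.4 and 46.4 CPM at 10 ng/L (0.35 ± 0.07). All 3 remained within the range of their own controls in the majority of exposed larvae, with 11, 12 and 7 larvae above it.

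FMt026224 rose from 30.6, 26.2 and 28.6 CPM to 42.9, 34.8 and 29.1 CPM (0.31 ± 0.07). FMt032638 went from 20.04, 19.5 and 18.7 CPM to 26.4, 23 and 22.2 CPM (0.30 ± 0.05). FMt032168 had 48.6, 47.1 and 48.1 CPM in controls and 68.6, 54.5 and 53.6 CPM at 10 ng/L (0.29 ± 0.06). In experiment 3 the change of FMt026224 was 0.03 on the log2 scale, and those of FMt032638 and FMt032168 were 0.25 and 0.15. FMt017711 rose from 135, 95.8 and 112 CPM to 182, 123 and 118 CPM (0.29 ± 0.07). FMt024505 went from 35.9, 30.6 and 36.2 CPM to 46.4, 38.7 and 38.3 CPM (0.26 ± 0.05). FMt008261 had 37.8, 29.3 and 33.9 CPM in controls and 48.5, 36.8 and 35.1 CPM at 10 ng/L (0.25 ± 0.05). The log2 changes of these 3 were 0.08, 0.08 and 0.05 in experiment 3, against 0.36 to 0.43 in experiment 1. FMt023085 rose from 57.8, 51.8 and 55.4 CPM to 70.5, 61.3 and 61.3 CPM (0.23 ± 0.04). FMt027767 went from 209, 189 and 189 CPM to 252, 215 and 214 CPM (0.21 ± 0.05). FMt019328 had 116, 98.4 and 96.6 CPM in controls and 139, 114 and 105 CPM at 10 ng/L (0.20 ± 0.04). For FMt027767 no more than 4 of 28 exposed larvae lay above their own controls, so the groups overlapped widely.

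FMt006110 rose from 39.8, 35.5 and 34.9 CPM to 47.4, 39.9 and 38.8 CPM (0.19 ± 0.05). FMt006735 went from 34.7, 30.6 and 31.3 CPM to 39.8, 35 and 34.4 CPM (0.18 ± 0.04). Both lay among the smallest rises, and 6 and 8 exposed larvae exceeded their own controls.

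In 11 further rises the change was largest in experiment 2.

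FMt023883 rose from 67.5, 66.8 and 84.7 CPM to 112, 114 and 107 CPM (0.61 ± 0.14). FMt042150 went from 2.77, 1.9 and 2.94 CPM to 4.23, 3.29 and 3.98 CPM (0.60 ± 0.13). FMt005559 had 63.6, 35.9 and 51.9 CPM in controls and 87.1, 77.9 and 62.1 CPM at 10 ng/L (0.60 ± 0.12). FMt005559 rose most in experiment 2, where its control mean was lowest, and none of its 28 exposed larvae lay above the highest of the 29 controls. FMt029616 rose from 73.8, 56 and 63.2 CPM to 98.2, 83.9 and 66.5 CPM (0.35 ± 0.08). FMt026959 went from 154, 155 and 159 CPM to 205, 208 and 175 CPM (0.32 ± 0.08). FMt030524 had 54.1, 40.03 and 46.5 CPM in controls and 69.9, 53.4 and 52.2 CPM at 10 ng/L (0.32 ± 0.06). FMt030524 had 15 exposed larvae above their own controls, FMt029616 9 and FMt026959 8. FMt010471 rose from 118, 117 and 116 CPM to 148, 158 and 132 CPM (0.31 ± 0.08). FMt000475 went from 32.5, 27 and 27.1 CPM to 38.4, 34.8 and 33.7 CPM (0.30 ± 0.06). FMt025037 had 9.82, 6.96 and 7.76 CPM in controls and 12.1, 9.35 and 8.8 CPM at 10 ng/L (0.30 ± 0.07). The changes of FMt000475 in the 3 experiments were close to each other, at 0.24, 0.36 and 0.32 on the log2 scale.

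FMt012364 rose from 41.9, 37.6 and 36.1 CPM to 48, 43.4 and 40.7 CPM (0.19 ± 0.04). FMt004380 went from 158, 140.1 and 148 CPM to 184, 168 and 157 CPM (0.19 ± 0.04). The changes of both were at most 0.26 on the log2 scale in each experiment, and 9 exposed larvae lay above the highest control of any experiment for either transcript.

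The remaining 5 rises were largest in experiment 3.

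FMt026985 rose from 1.5, 0.899 and 0.858 CPM to 2.07, 1.53 and 1.82 CPM (0.76 ± 0.18). FMt005809 went from 60.9, 46.7 and 38.1 CPM to 78.9, 63.1 and 55.9 CPM (0.45 ± 0.09). FMt007935 had 17.3, 17.6 and 19.7 CPM in controls and 21.5, 21.6 and 25 CPM at 10 ng/L (0.32 ± 0.08). FMt026985, near 1 CPM, rose by 0.46, 0.76 and 1.09 on the log2 scale in the 3 experiments. FMt027937 rose from 46.1, 40.7 and 36 CPM to 55.5, 48.2 and 47.4 CPM (0.30 ± 0.07). FMt032707 went from 15.4, 11.7 and 11.3 CPM to 16.8, 13.6 and 13.9 CPM (0.21 ± 0.05). Of the 28 exposed larvae, 4 exceeded their own controls for FMt027937 and 13 for FMt032707.

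Among the falls, 13 not yet given were largest in experiment 1.

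FMt005828 fell from 8.63, 9.84 and 10.1 CPM to 6.16, 8.24 and 7.63 CPM (-0.39 ± 0.08). FMt007359 went from 20.3, 25.1 and 28.7 CPM to 15.7, 21.9 and 22.9 CPM (-0.30 ± 0.07). FMt020540 had 48.4, 64.5 and 55.9 CPM in controls and 37.8, 52 and 48.9 CPM at 10 ng/L (-0.29 ± 0.05). FMt020540 lay below every control of its own experiment in 17 of 28 exposed larvae, FMt007359 in 16 and FMt005828 in 11. FMt008530 fell from 8.56, 10.0 and 9.45 CPM to 6.62, 8.11 and 8.39 CPM (-0.28 ± 0.07). FMt036759 went from 87.8, 111 and 119 CPM to 70.3, 93.8 and 98.5 CPM (-0.28 ± 0.04). FMt014271 had 26.7, 28.8 and 29.9 CPM in controls and 22.2, 24.5 and 25.5 CPM at 10 ng/L (-0.24 ± 0.05). FMt036759 had the smallest error of these 3, and it fell by 0.32, 0.24 and 0.28 on the log2 scale in the 3 experiments. FMt010889 fell from 19.8, 21.1 and 20.9 CPM to 15.9, 17.9 and 18.9 CPM (-0.23 ± 0.06). FMt002977 went from 133, 147 and 155 CPM to 109, 128 and 139 CPM (-0.22 ± 0.05). FMt028243 had 403, 450.2 and 502 CPM in controls and 318, 430.1 and 429.8 CPM at 10 ng/L (-0.21 ± 0.04). The log2 change of FMt028243 was -0.07 in experiment 2 and -0.34 in experiment 1.

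FMt043277 fell from 226, 276 and 296 CPM to 187, 244 and 262 CPM (-0.21 ± 0.04). FMt033714 went from 51.5, 69.6 and 70.7 CPM to 43.7, 59.1 and 63.9 CPM (-0.21 ± 0.04). FMt016308 had 62.3, 74.8 and 75.7 CPM in controls and 52.3, 67.8 and 68 CPM at 10 ng/L (-0.18 ± 0.04). The numbers of exposed larvae below their own controls were 14, 14 and 13 for these 3. FMt010006 fell from 92.9, 101 and 113 CPM to 78.2, 95.7 and 101 CPM (-0.17 ± 0.03). Although its change was the smallest of the falls, 17 of 28 exposed larvae lay below their own controls for FMt010006.

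In 7 falls the change was largest in experiment 2.

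FMt036848 fell from 13.5, 17.3 and 18.2 CPM to 10.7, 13.4 and 15.4 CPM (-0.31 ± 0.06). FMt002863 went from 39.2, 50.9 and 52.4 CPM to 32.9, 40.6 and 42.3 CPM (-0.29 ± 0.05). FMt027523 had 20.9, 25.5 and 27.2 CPM in controls and 17.1, 20.2 and 23.5 CPM at 10 ng/L (-0.27 ± 0.06). FMt027523, whose identifier lies near that of FMt027516, was below its own controls in 13 exposed larvae. FMt006922 fell from 5.51, 7.51 and 6.51 CPM to 4.49, 5.95 and 5.76 CPM (-0.27 ± 0.06). FMt014237 went from 13.3, 17.2 and 15.9 CPM to 11.4, 14.3 and 13.6 CPM (-0.24 ± 0.06). FMt019032 had 31.1, 34.8 and 34.8 CPM in controls and 26.7, 29.4 and 30.1 CPM at 10 ng/L (-0.22 ± 0.05). In each experiment these 3 fell by 0.18 to 0.34 on the log2 scale. FMt000769 fell from 43.6, 46.9 and 48 CPM to 38, 38.9 and 42.5 CPM (-0.21 ± 0.04). It was lower than the lowest of the 29 controls in 10 of 28 exposed larvae.

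The last 7 falls were largest in experiment 3.

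FMt039137 fell from 0.852, 1.17 and 1.05 CPM to 0.504, 0.667 and 0.523 CPM (-0.87 ± 0.20). FMt002788 went from 76, 117 and 138 CPM to 56.7, 94.6 and 101 CPM (-0.39 ± 0.07). FMt009987 had 19.9, 22.8 and 26.9 CPM in controls and 15.8, 19 and 20.4 CPM at 10 ng/L (-0.33 ± 0.07). FMt039137, below 1 CPM on average, fell by 0.77, 0.82 and 1.01 on the log2 scale in the 3 experiments, and FMt009987 lay under all 29 controls in 12 exposed larvae. FMt029768 fell from 34.8, 41.8 and 45.8 CPM to 29.5, 37.5 and 36.1 CPM (-0.25 ± 0.06). FMt036136 went from 36.5, 38.3 and 40.5 CPM to 32.2, 32.5 and 34.3 CPM (-0.22 ± 0.05). FMt022923 had 20.4, 24.1 and 27.2 CPM in controls and 17.8, 20.8 and 23.1 CPM at 10 ng/L (-0.21 ± 0.05). FMt036136 lay below its own controls in 5 of 28 exposed larvae, and FMt029768 in 11. FMt040303 fell from 28.8, 30.5 and 30.0 CPM to 25.6, 26.9 and 26.1 CPM (-0.19 ± 0.04). Its fall was nearly equal in the 3 experiments, at -0.18, -0.18 and -0.20 on the log2 scale.

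**Figure D3:**
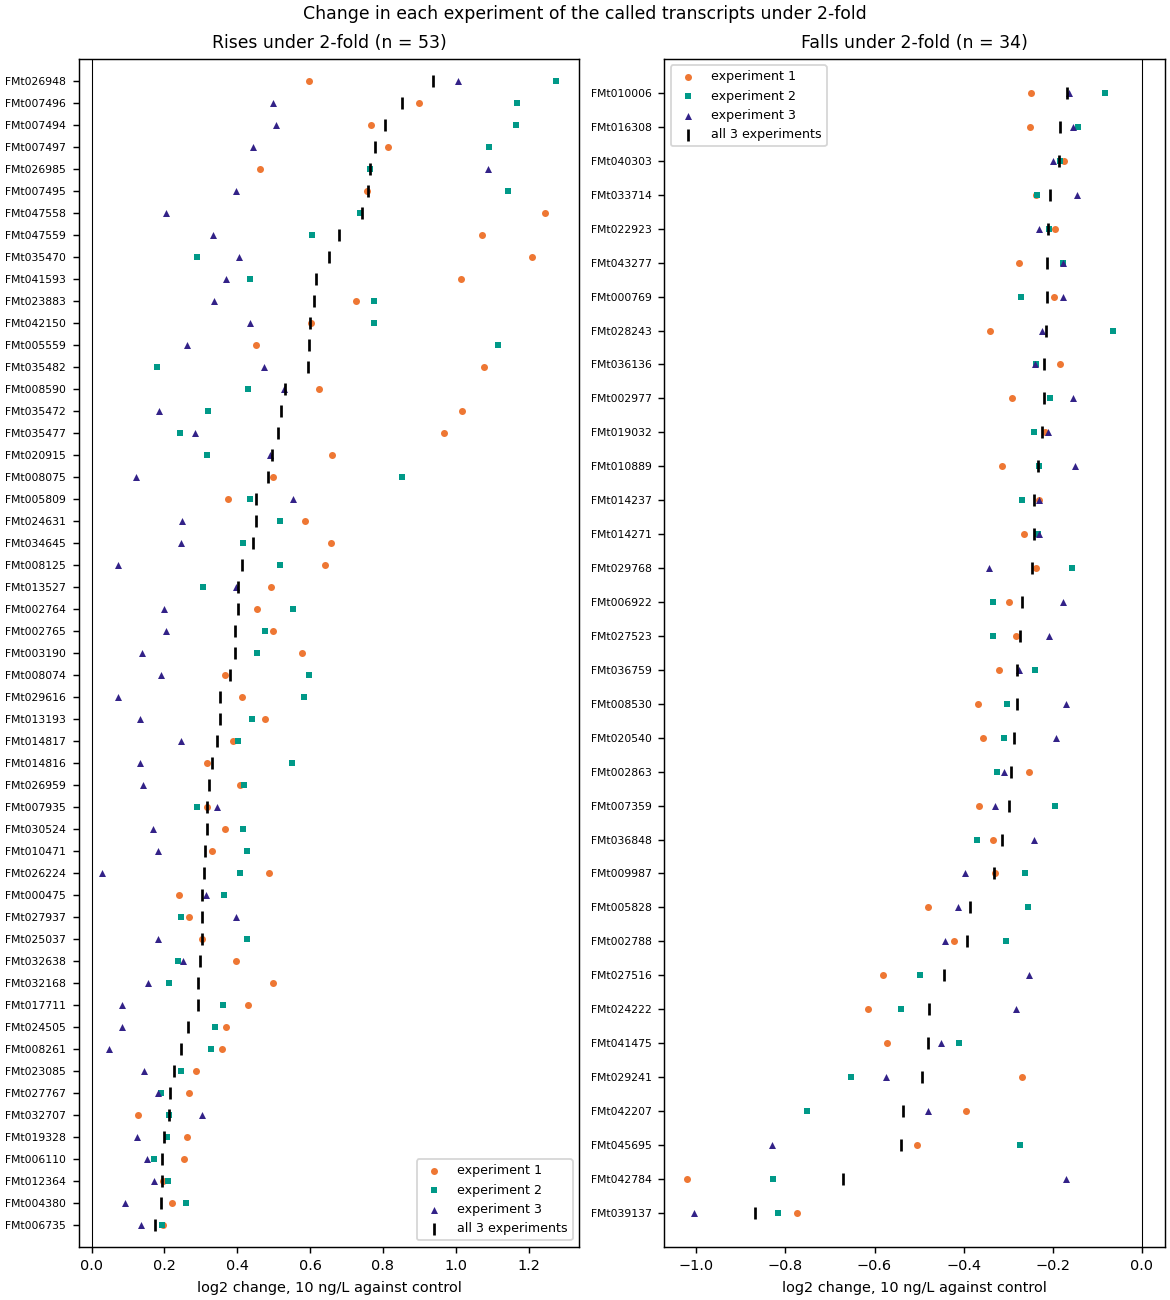
Log2 change at 10 ng/L against control in each experiment (coloured symbols) and over the 3 experiments (black bar) for the 53 rises and 34 falls under 2-fold. In the left panel, the symbols of experiment 3 most often lie nearest to 0.

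Each of the 96 called transcripts changed in the same direction in the 3 experiments, as did 30.2% of all transcripts tested. The calls were made on those data, so this share is a description. The median log2 change of the rises was 0.49, 0.44 and 0.25 in experiments 1, 2 and 3. That of the falls was -0.31, -0.27 and -0.23. The change was smallest in experiments 1, 2 and 3 for 8, 10 and 43 of 61 rises. For the 35 falls these numbers were 9, 11 and 15, which is a more even split. The share over all transcripts tested was not computed for the smallest change. The change was largest in experiments 1, 2 and 3 for 30, 25 and 6 rises and for 17, 10 and 8 falls. Over all transcripts tested, the largest absolute change fell in experiments 1, 2 and 3 for 33.01%, 32.5% and 34.5%. No transcript passed the test of a difference between experiments (0 by edgeR and 0 by limma-voom, with 1275, or 3.91%, and 973 at an unadjusted p under 0.05). The 5 smallest p-values in that test were those of FMt008941, FMt002525, FMt034002, FMt036339 and FMt037422.

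Tested within 1 experiment at a time, few transcripts were called. Experiment 1 alone gave 5 calls (0.0156% of those tested), experiment 2 alone 9 (0.0284%) and experiment 3 alone 4 (0.0123%). The 4 transcripts without overlap were called in each experiment. Experiment 1 added the fall of FMt042784. Experiment 2 added the rises of FMt036339, FMt005559, FMt008074, FMt008075 and FMt003922, the last of which is not among the 96. With 1 experiment left out of the fit, the calls from the other experiments can be read in larvae that did not enter them. Of the 15 calls made without experiment 1, 13 had the same sign in it and 10 also an unadjusted p under 0.05 there, against 55.2% and 3.79% of all transcripts tested. Of the 18 calls made without experiment 2, these numbers were 16 and 10 (55.1% and 2.76% of all). Of 61 calls made without experiment 3 that could be tested in it, 54 had the same sign and 17 also an unadjusted p under 0.05 (54.5% and 3.11% of all). The 4 transcripts without overlap are among the calls that recurred in each of these comparisons. The other calls therefore recurred less often than these numbers give. The median log2 change in the direction of the call was smaller in the experiment left out, at 0.43 after 0.93, 0.26 after 0.55 and 0.17 after 0.50.

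The called transcripts also differed between experiments in larvae that were not exposed. The control mean was highest in experiment 1 for 48 of 61 rises, against 37.4% of all transcripts tested, and lowest in experiment 1 for 34 of 35 falls, against 33.7%. At 10 ng/L the exposed mean was highest in experiment 1 for 54 of 61 rises (34% of all) and lowest for 33 of 35 falls (36.8% of all). The rises were thus mostly transcripts that were already higher in experiment 1, and the falls transcripts that were already lower. In controls the median log2 level in experiment 1 over that in the other experiments was 0.22 for the rises, -0.33 for the falls and 0.006 over all transcripts tested. What differed between the experiments is not given in the labels, and its part in the calls was not tested.

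**Figure D4:**
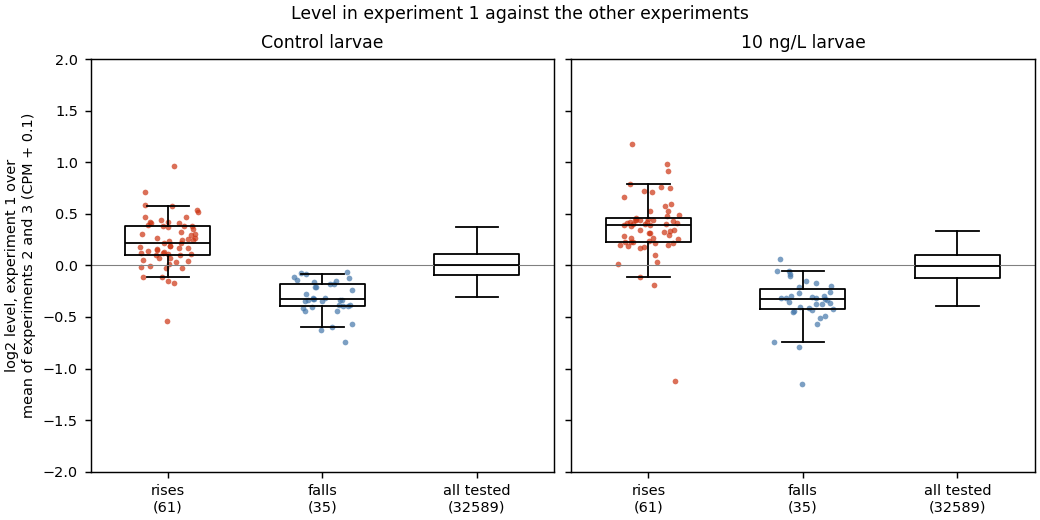
Log2 of the mean level (CPM plus 0.1) in experiment 1 over the mean of experiments 2 and 3, in control larvae (left) and larvae at 10 ng/L (right), for the rises, the falls and all transcripts tested. Points are transcripts, boxes span the quartiles with a line at the median, and whiskers reach the 5th and 95th percentiles; in controls the rises lie mostly above 0 and the falls below it.

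Single larvae differed in how many of the called transcripts lay outside the controls of their own experiment. The calls were made on these same larvae, so the numbers that follow are a description. Some values lie outside the controls by rank alone, and the share over all transcripts tested was not computed. In experiment 1 an exposed larva exceeded each control of its experiment for 10 to 46 of the 61 rises (median 37). In every larva of the 3 experiments, such a number includes the 4 transcripts without overlap. In experiment 2 the numbers were 18 to 48 (median 36), and in experiment 3 they were 10 to 29 (median 15). The falls were below each control of the experiment for 11 to 22 of 35 transcripts (median 15.5) in experiment 1, for 9 to 21 (median 14) in experiment 2 and for 2 to 21 (median 15) in experiment 3. In experiment 1, the larvae with replicate numbers 3 and 22 had the lowest numbers of rises, 10 and 12. Seen by transcript, the rises exceeded the own controls in 4 to 28 of the 28 exposed larvae (median 12). The falls were below them in 5 to 19 (median 11). For most called transcripts, many exposed larvae thus lay within the range of their own controls.

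**Figure D5:**
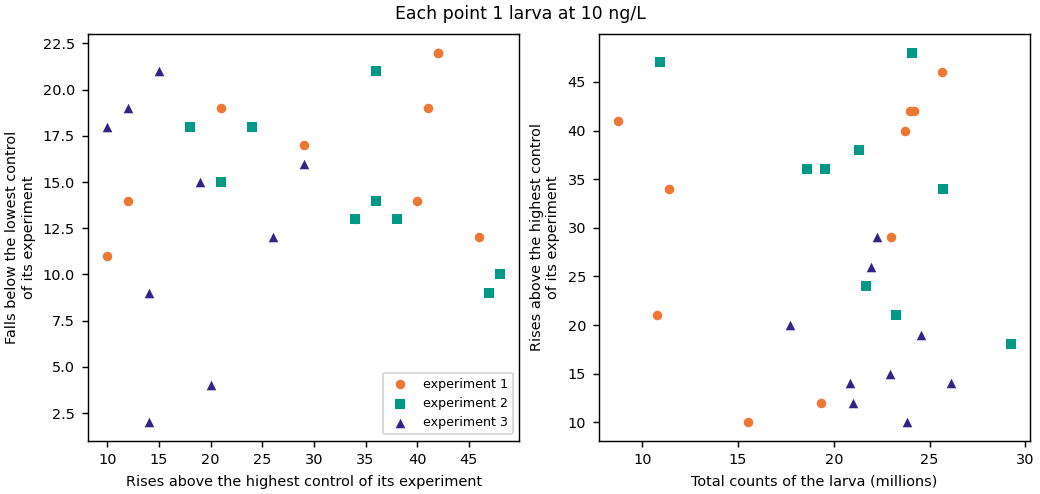
For each of the 28 larvae at 10 ng/L, the number of rises above the highest control of its experiment by the number of falls below the lowest one (left), and the number of rises by total counts (right). Larvae of experiment 3 lie between 10 and 29 rises, below most larvae of experiments 1 and 2.

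No transcript passed the test of whether larvae at 10 ng/L vary more or less among themselves than controls (0 by limma on absolute deviations of log2 CPM, with 1909 at an unadjusted p under 0.05, or 5.86%). The smallest p-values were those of FMt039803 (adjusted p = 0.0668 by limma), FMt005922, FMt036339 (adjusted p = 0.0973), FMt018100 and FMt043678. For FMt036339 the mean absolute deviation of log2 CPM at 10 ng/L exceeded that of controls by 0.75.

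Near the threshold, the called and uncalled transcripts hardly differed. The 5 called last were FMt035481, FMt010889, FMt010471, FMt008125 and FMt014816, with edgeR adjusted p from 0.0426 to 0.0469. The first 5 left out were FMt018068, FMt020914, FMt016868, FMt033939 and FMt027639, from 0.0502 to 0.0548. FMt020914 had a log2 change of 0.42 ± 0.10 (SE) and FMt008125, on the other side, 0.41 ± 0.10.

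Some calls depended less than others on the settings and on the libraries used. Over 16 alternative settings of the test or choices of libraries, 6 transcripts were called in each: FMt030406, FMt030407, FMt030408, FMt019919, FMt008590 and FMt041475. The log2 change of FMt008590 ranged from 0.48 to 0.61 over them, and that of FMt041475 from -0.52 to -0.43. A further 4 were called in all but 1 setting and 10 in all but 2. RLE scaling, DESeq2 and edgeR without robust shrinkage lost 0 of the 96 calls. Limma-voom lost 18 and the fit without the experiment term 53. Leaving out an experiment or the shallow libraries lost 44 to 82. At the other end, 25 of the 96 were called in at most 8 of the settings. Of the transcripts listed without full statistics, FMt047558 was called in 5 of the 15 settings that tested it. FMt010471 and FMt008530 were called in 5 of 16. Of the transcripts with full statistics, FMt042207 was called in 15, FMt036339 and FMt003762 in 14, FMt043678 in 12, FMt045695 and FMt042784 in 10, FMt029241 in 9, FMt026948 and FMt027516 in 8, FMt024222 in 7 and FMt035481 in 4 of 16. FMt011524 was called in 11 of the 14 settings that tested it.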

How the data were processed

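The authors deposited raw counts of mRNA-seq reads per transcript and library, in 1 table. Libraries were made with the SENSE mRNA-Seq V2 kit, per the labels' protocols, and reads were mapped to known transcripts, per the series' design text. The submitters' processing notes name edgeR 3.26.8, limma 3.40.6 and bcl2fastq 2.19.1. Of the aligner, the strand setting of the counting and the filter behind the 37085 transcripts listed (the lowest has 117 reads in all), nothing is stated in the sources at hand. An unnamed entry with 1.67e-05% of the reads was left out, and 0 columns were left unmapped.

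The counts were fitted by edgeR 4.0.16 in R 4.3.3 with filterByExpr (minimum count 10, minimum total 15), TMM scaling and a robust quasi-likelihood model of group and experiment. The fit holds the control and 10 ng/L larvae, so that libraries of other concentrations, 1 of which stood apart in earlier results, do not enter the spread. P-values were Benjamini-Hochberg adjusted over 32589 transcripts. An SE is the absolute log2 change over the root of F. CPM were computed from the deposited counts with TMM-scaled totals. The median transcript had 154 counts per library. Among called transcripts at 1 CPM or more in controls, the median coefficient of variation within a group and experiment was 17.5%. The spread between larvae was tested with limma 3.58.1 on log2 CPM (prior count 2). Correlations and library measures were tested by 1e+05 permutations within experiments.

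The naming rule lists every called transcript with its levels per experiment. Full statistics go to the 8 rises and 8 falls that changed most, if their mean was 1 CPM or more, and to every called change of 2-fold or more. The 5 smallest p-values of the tests of interaction and of spread, and 5 transcripts on each side of the threshold, are also named. The members and lists were chosen with earlier results of these data known. Groups of neighbouring identifiers and the 2 larvae with few rises above their own controls were picked out after their values were seen. So was the 1 call within experiment 2 that is not among the 96. The correlations between neighbours were added then. Gene lists that need symbols were not applied, since no identifier matched. No library was a copy of another: the chi-square statistic was 10.3 to 99.1 times its degrees of freedom over 243 pairs within a group and experiment. The scripts were tested on simulated data. Alternatives were RLE scaling, other low-count filters, limma-voom, DESeq2 1.42.0, other terms in the fit, all concentrations in 1 fit, and experiments or shallow libraries left out.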

Additional observations from a re-analysis of the deposited data

Results flagged for a closer look

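Dixon's 95% criterion was applied 120 times, each to the larvae of 1 concentration and experiment for 1 library measure or transcript. It set the lowest or highest value against the nearest other, on log2(CPM + 0.1) for transcripts. It flagged 12 of these tests, or 10%, where chance flags about 1 in 20. The tests share larvae and are not independent. Among the library measures, control replicate 12 of experiment 1 had the lowest total, 11652000 counts against 21711400 in the next control. Control replicate 28 of experiment 2 had the lowest TMM factor, 0.902, and larva 68 at 10 ng/L in experiment 3 the fewest transcripts with a read, 36226.

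Among control levels, replicate 3 of experiment 1 was highest for FMt041475 at 176 CPM and lowest for FMt042784 at 8.10 CPM. In experiment 2, replicate 28 was lowest for FMt043678 at 0.663 CPM and replicate 33 for FMt003762 at 0.247 CPM, and in experiment 3 replicate 62 was highest for FMt043678 at 2.67 CPM. Among larvae at 10 ng/L, replicate 8 of experiment 1 was lowest for FMt030406 at 12.5 CPM, still above every control, and replicate 18 for FMt042784 at 3.96 CPM. In experiment 2, replicate 47 was lowest for FMt019919 at 2.01 CPM, also above every control, and replicate 28 for FMt027516 at 2.78 CPM.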

How the results depend on the processing

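Against 96 calls by edgeR, RLE scaling gave 98, no low-count filter 99, a filter of at least 1 CPM in 28 libraries 108, limma-voom 82, edgeR without robust shrinkage 97 and limma-voom with a correlation within runs of 5 title numbers 89. DESeq2 called 160, which include the 96, and limma-voom with quality weights called 174, of which 89 are shared. The number was 43 without the experiment term, 56 with all 6 concentrations in 1 fit (51 shared), 35 at an adjusted p under 0.01 and 9 at 2-fold or more. It was 15 without experiment 1, 18 without experiment 2 and 62 without experiment 3, and 53 without libraries under 0.5 times the median total. Leaving out libraries under 12000000 counts, chosen after seeing the data, gave 38. Within experiment 2, limma-voom called 5 in place of 9. The test of spread called 1 transcript, FMt036339, with trended robust variances, also chosen after seeing the data. No called transcript reversed its sign in these settings. The settings share most or all larvae with the main fit, so a reversal was unlikely beforehand.

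With the title number as a replicate block, 47 transcripts were called, 41 of them among the 96. Apart from its use here to assign the experiment, the labels do not say what the number marks. Same-numbered larvae correlated between -0.196 and 0.457 over 27 pairs (median -0.0223), 8 pairs were over 0.1, and 3 of 27 controls correlated best with their own number, so the numbers were not taken as pairs. For transcripts near 0.1 CPM the control level rests on few reads per larva, and the causes of these differences were not tested.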
